A study of Mus musculus with 18 samples.

Results

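Levels of 8 genes of retinoid metabolism were examined in liver RNA-Seq of mice given the drug asparaginase (ASNase) or phosphate buffered saline (PBS). The genes were Cyp26a1, Cyp26b1, Rbp4, Ttr, Lrat, Rdh7, Dhrs3 and Aldh1a1, found by their symbols among the 37303 genes of the table. Each symbol matched 1 gene. ASNase is an enzyme that depletes asparagine and, less strongly, glutamine in blood. GCN2 is a kinase that senses scarce amino acids, and the transcription factor ATF4 is made in larger amounts once GCN2 is active. The study asked how livers without either protein respond to the drug.

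Poly-A RNA was sequenced from 18 C57BL/6J mice in 6 groups of 3. Wild type (WT) mice, Gcn2-/- mice and Atf4-/- mice, the mutants lacking the gene in every tissue on both chromosomes, received ASNase (Elspar) at 3 IU per gram body weight or an equal volume of PBS. Injections were given into the abdominal cavity once a day on 8 days, and mice were killed 7.5 h after the last by the labels. All strains had at least 8 generations on the background. The labels give an age of 8 to 12 weeks in one place and 8 to 16 weeks in another. The groups mixed the sexes unevenly. WT PBS, Gcn2-/- PBS and Gcn2-/- ASNase held 1 male each, whereas WT ASNase, Atf4-/- PBS and Atf4-/- ASNase held 2, so a difference between these sets of groups cannot be told apart from one between sexes.

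Each value is an FPKM, the number of sequenced fragments scaled to transcript length and to library size, which Cuffdiff estimated from the 3 libraries of a group together. It is given here with its deposited lower and upper bound. There was 1 value a group, so no SD, no p-value and no check against the spread between mice could be had, and the read number behind each value is not contained in it. All 48 member values had status OK, Cuffdiff's mark for a completed estimate. Differences between groups are on the log2(FPKM + 0.1) scale, which understates changes of low genes. To be eligible, a gene needed an OK status and a level above 0 in both groups compared and a level over 3 FPKM in either. It was called, and is said below to have risen or fallen, when in addition the log2 difference exceeded 1.5 in size and both intervals were apart. This rule is a description and not a test.

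Retinol from the diet reaches the liver, where lecithin retinol acyltransferase stores it as esters in stellate cells. Hepatocytes release it into blood on retinol-binding protein, which travels bound to transthyretin. Inside cells retinol is oxidised reversibly to retinal by alcohol and retinol dehydrogenases, and retinal irreversibly to retinoic acid by aldehyde dehydrogenases. Retinoic acid activates the nuclear receptors RAR and RXR and is cleared by enzymes of the CYP26 family. Cyp26a1 is itself a well-known target of retinoic acid, through a direct repeat of the receptor half-site with a spacer of 5 bases (DR5).

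Promoter sequence was read for the members from RefSeq (GRCm38.p6), and 7 of the 8 members matched, with 12 windows in all. 3 windows are shown because they contrast a member that holds a receptor repeat, its paralog without one and a member with a match to the composite element TGATGNAA, a known binding sequence of ATF4 with C/EBP partners. Each is the 250 bases before the RefSeq transcript start, in the direction of transcription, and capitals mark the match. The Cyp26a1 window is chr19:37697558-37697807 on the plus strand, the Cyp26b1 window chr6:84593811-84594060 on the minus strand and the Rbp4 window chr19:38125322-38125571 on the minus strand.
Cyp26a1: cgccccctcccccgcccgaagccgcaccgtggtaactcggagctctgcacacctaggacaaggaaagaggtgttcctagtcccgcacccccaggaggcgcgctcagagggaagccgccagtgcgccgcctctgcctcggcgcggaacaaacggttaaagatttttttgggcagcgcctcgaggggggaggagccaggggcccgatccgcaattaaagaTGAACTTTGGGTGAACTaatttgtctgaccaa
Cyp26b1: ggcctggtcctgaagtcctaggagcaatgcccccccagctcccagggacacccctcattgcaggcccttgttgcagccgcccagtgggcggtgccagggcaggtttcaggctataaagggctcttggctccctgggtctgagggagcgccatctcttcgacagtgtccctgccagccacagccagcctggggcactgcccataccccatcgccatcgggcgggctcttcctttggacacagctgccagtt
Rbp4: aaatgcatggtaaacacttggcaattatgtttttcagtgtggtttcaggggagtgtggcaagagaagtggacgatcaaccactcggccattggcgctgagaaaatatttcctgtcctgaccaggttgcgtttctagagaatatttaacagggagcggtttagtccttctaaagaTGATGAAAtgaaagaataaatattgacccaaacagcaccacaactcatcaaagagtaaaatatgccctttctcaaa

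The DR5 search took AGGTCA or AGTTCA, any 5 bases, and again AGGTCA or AGTTCA, on both strands of the window from 250 bases before to 50 after the start. Cyp26a1 held 1 match, on the strand opposite to transcription, from 32 to 16 bases before the start (chr19:37697776-37697792). Among all 32841 windows of the same length 13 held such a match, or 0.0396%, and Cyp26a1 was the one member among them. Both of its half-sites also count as matches to AGTTCA alone, which 14.0% of windows held. The same search with a spacer of 2 bases found no member. TGATGNAA was matched in 1 Rbp4 window, from 76 to 69 bases before that start, and in 3.97% of all windows. The window of the other Rbp4 start (chr19:38124762-38125061) held no such match. A single AGGTCA stood in 1 Rdh7 window, from 105 to 100 bases before the start, against 16.3% of all windows. The other Rdh7 window held none. A match is a match of letters and no measure of binding.

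Hepatocyte markers were high in all groups. The 6 of 10 listed markers with status OK in each group summed to between 15696 FPKM in Atf4-/- ASNase and 34426 FPKM in Gcn2-/- PBS. Albumin was listed at 0 with a status other than OK in all groups, a failed estimate. Tissue from elsewhere stood out in some groups. A list of 9 skeletal muscle genes summed to 878 FPKM in WT PBS and 1241 FPKM in WT ASNase against 5.82 to 147 FPKM in the mutants, and 4 lung epithelium genes summed to 132 FPKM in WT PBS against at most 2.05 FPKM elsewhere. Lists of 6 adipocyte and 6 myofibroblast genes summed to 20.3 to 75.4 FPKM and 13.7 to 36.0 FPKM. The gene of GCN2, Eif2ak4, lay at 2.31 and 2.96 FPKM in the Gcn2-/- groups and between 2.19 and 3.14 FPKM in the others, and Atf4 lay at 29.3 and 32.3 FPKM in the Atf4-/- groups against 50.4 to 68.1 FPKM elsewhere. Neither gene was called in any comparison. A value over a whole gene does not show which exons carried the reads, so these values do not check the labels, and groups are named by their labels.

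The members covered a wide range of levels per length. Rbp4 and Ttr ranked among the most abundant genes of the liver, Rdh7 and Aldh1a1 lay between 133 and 726 FPKM, Dhrs3 between 32.4 and 94.1 FPKM, and Lrat and both Cyp26 genes at or under 15.7 FPKM in each group. The plot of member levels shows all 48 values.

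**Figure D1:**
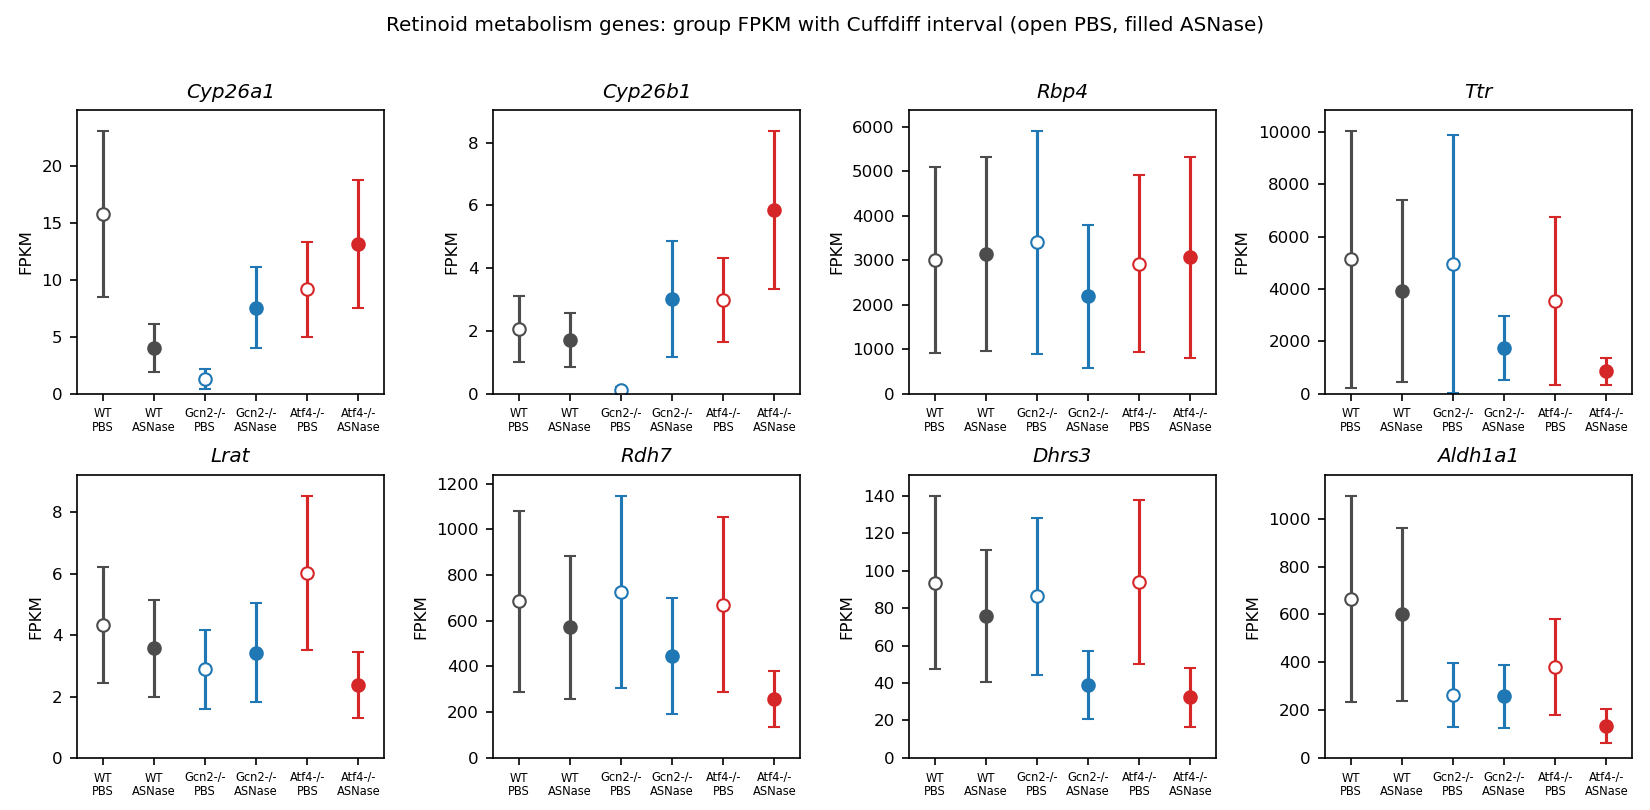
FPKM (y axis, linear from 0) of the 8 members in the 6 groups (x axis), open circles PBS, filled circles ASNase, bars the deposited Cuffdiff interval, with 1 value for 3 mice. Cyp26a1 and Cyp26b1 were lowest in Gcn2-/- PBS, at 1.30 and 0.10 FPKM, and Rbp4 stayed between 2183 and 3396 FPKM.

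Transport was described by the pair Rbp4 and Ttr. Rbp4 (chr19:38116620-38125321, minus strand, mm10), which encodes the retinol carrier of blood, was measured at 3005 FPKM (921 to 5089) in WT PBS and 3129 FPKM (946 to 5312) in WT ASNase. It lay at 3396 FPKM (898 to 5894) in Gcn2-/- PBS and 2183 FPKM (571 to 3796) in Gcn2-/- ASNase. The Atf4-/- values were 2920 FPKM (929 to 4911) with PBS and 3064 FPKM (806 to 5321) with ASNase. All 15 pairs of groups had overlapping intervals, and the highest value was 1.56-fold the lowest. Rbp4 was thus the member with the narrowest range, and no order of its groups holds beyond the intervals.

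Ttr encodes transthyretin, which carries the retinol-binding protein and thyroid hormone. It was measured at 5131 FPKM (230 to 10032) in WT PBS and 3923 FPKM (449 to 7397) in WT ASNase. Gcn2-/- livers had 4950 FPKM (13.1 to 9887) with PBS and 1749 FPKM (538 to 2960) with ASNase. The Atf4-/- strain had 3541 FPKM (313 to 6769) with PBS and 854 FPKM (342 to 1365) with ASNase. The lowest 2 levels were those of the mutants given ASNase, with log2 differences from their PBS groups of -1.50 in Gcn2-/- and -2.05 in Atf4-/-. The intervals were so wide that all 15 pairs overlapped, and Ttr was called in no comparison. Its value in the table covers a locus of 116 kb, wider than the 9.04 kb of the annotated gene and shared with 2 further entries, Dsg2 and Gm16090.

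Ttr FPKM divided by Rbp4 FPKM came to 1.71 for WT PBS, 1.25 for WT ASNase, 1.46 for Gcn2-/- PBS and 1.21 for Atf4-/- PBS. The ratio was 0.801 in Gcn2-/- ASNase and 0.279 in Atf4-/- ASNase. Ttr was thus listed below Rbp4 in the mutants given ASNase and above it in the other 4 groups, a description that the wide Ttr intervals limit. Both genes are known to go down in the acute phase response of the liver. The 5 of 9 acute phase genes with status OK throughout summed to 43103 FPKM in Gcn2-/- ASNase and 22179 FPKM in Atf4-/- ASNase. With PBS they summed to 1376 FPKM in WT, 3922 FPKM in Gcn2-/- and 2489 FPKM in Atf4-/- livers. The WT ASNase sum was 907 FPKM. Of 6 acute phase genes eligible in the Gcn2-/- response none was called, beside 3.69% of all eligible genes. In the Atf4-/- response 1 of 7 was called, beside 7.37%. The part of the acute phase response in the Ttr values was not tested.

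Storage was described by Lrat (chr3, minus strand), the enzyme that makes retinyl esters. It was measured at 4.33 FPKM (2.45 to 6.21) in WT PBS and 3.57 FPKM (1.98 to 5.16) in WT ASNase, and at 2.89 FPKM (1.61 to 4.17) in Gcn2-/- PBS and 3.43 FPKM (1.82 to 5.04) in Gcn2-/- ASNase. Atf4-/- livers had the highest value, 6.04 FPKM (3.53 to 8.55) with PBS, and the lowest, 2.37 FPKM (1.30 to 3.45) with ASNase. Those were the one pair of 15 with separate intervals, at a log2 difference of -1.31, under the limit for a call. The list of 11 stellate cell markers summed to 261 FPKM in Atf4-/- PBS and 177 FPKM in Atf4-/- ASNase, and to 169 to 265 FPKM in the other groups, with none of the 11 at 0 in any group. In these Atf4-/- groups the highest marker held 110 and 104 FPKM, and the median marker 3.73 and 3.22 FPKM. Of 7 eligible markers 1 was called lower between them, beside 4.63% of all eligible genes. In RNA of whole liver, fewer cells of a type and less RNA per cell cannot be told apart. The table's locus for Lrat spans 66.9 kb, shared with another entry, against 11.4 kb of the gene.

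Retinol and retinal were represented by an oxidising and a reducing enzyme. Rdh7 (chr10:127884028-127888817, minus strand) encodes a retinol dehydrogenase. It was measured at 686 FPKM (290 to 1081) in WT PBS, 571 FPKM (257 to 884) in WT ASNase, 726 FPKM (304 to 1147) in Gcn2-/- PBS and 445 FPKM (190 to 699) in Gcn2-/- ASNase. In Atf4-/- livers it was 670 FPKM (287 to 1054) with PBS and 257 FPKM (133 to 380) with ASNase. The last was the lowest level, at a log2 difference of -1.38 from Atf4-/- PBS, yet all 15 pairs overlapped. Rdh7 has close paralogs beside it on the chromosome, Rdh9, Rdh16 and Rdh1 among them, between which reads may have been split.

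Dhrs3 (chr4:144892827-144928209, plus strand) encodes a reductase that turns retinal back to retinol and so limits retinoic acid. It was measured at 93.7 FPKM (47.3 to 140) in WT PBS and 75.8 FPKM (40.6 to 111) in WT ASNase. Gcn2-/- livers had 86.3 FPKM (44.5 to 128) with PBS and 38.9 FPKM (20.8 to 57.0) with ASNase, a log2 difference of -1.15 with overlapping intervals. Atf4-/- livers had 94.1 FPKM (50.1 to 138) with PBS and 32.4 FPKM (16.8 to 48.0) with ASNase. In the Atf4-/- strain Dhrs3 fell by 1.54 on the log2 scale, or 2.90-fold, close to the limit of 1.5, and this was its one pair of 15 with separate intervals.

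Retinoic acid synthesis was described by Aldh1a1 (chr19:20601961-20643462 in the table, plus strand), a retinal dehydrogenase of hepatocytes. It was measured at 666 FPKM (234 to 1097) in WT PBS and 600 FPKM (240 to 961) in WT ASNase. Gcn2-/- livers had 265 FPKM (131 to 398) with PBS and 259 FPKM (127 to 391) with ASNase, a log2 difference of -0.03. In Atf4-/- livers it was at 381 FPKM (180 to 582) with PBS and 133 FPKM (60.4 to 206) with ASNase. The WT groups were highest. Against WT ASNase, Aldh1a1 fell 4.51-fold in Atf4-/- ASNase (log2 difference -2.17), and that group's interval also lay under the interval of WT PBS. Within the Atf4-/- strain the log2 difference between ASNase and PBS was -1.52, with overlapping intervals. The paralog Aldh1a7 shares much of its sequence, so reads may have been split. The annotated gene starts 5′ of the table's locus and spans 151 kb.

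Retinoic acid breakdown gave the widest ranges. Cyp26a1 (chr19:37697808-37701528, plus strand), the main retinoic acid hydroxylase of liver, was measured at 15.7 FPKM (8.45 to 23.0) in WT PBS and 3.97 FPKM (1.87 to 6.08) in WT ASNase. Gcn2-/- livers had 1.30 FPKM (0.412 to 2.18) with PBS and 7.54 FPKM (4.01 to 11.1) with ASNase. Atf4-/- livers had 9.18 FPKM (5.005 to 13.3) with PBS and 13.1 FPKM (7.52 to 18.8) with ASNase. Of 15 pairs of groups 6 had separate intervals, and Gcn2-/- PBS lay under 4 of the other groups, all but WT ASNase. No group was apart from its neighbour in the order of levels.

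Cyp26b1 (chr6:84571414-84593908, minus strand), a paralog with the same activity, was measured at 2.07 FPKM (1.02 to 3.12) in WT PBS and 1.71 FPKM (0.844 to 2.58) in WT ASNase. Gcn2-/- livers had 0.10 FPKM (0 to 0.204) with PBS and 3.02 FPKM (1.18 to 4.87) with ASNase. The levels of Atf4-/- livers were 2.99 FPKM (1.65 to 4.34) with PBS and 5.85 FPKM (3.32 to 8.37) with ASNase. Gcn2-/- PBS lay under each of the other 5 groups with a separate interval, and Atf4-/- ASNase lay above both WT groups. Of 15 pairs, 7 were separate.

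With PBS, the sum of both Cyp26 genes was 17.8 FPKM in WT, 1.40 FPKM in Gcn2-/- and 12.2 FPKM in Atf4-/- livers. With ASNase, it was 5.68, 10.6 and 19.0 FPKM in the same order of strains. Cyp26b1 made up 11.6% of it in WT PBS and 7.17% in Gcn2-/- PBS, and between 24.6% and 30.8% in the other groups.

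The response to ASNase was then compared within each strain. In WT livers Cyp26a1 fell 3.96-fold, a log2 difference of -1.96, and it was the one member called of 7 eligible. Over all eligible genes 0.881% were called in this comparison, and 11 genes of 9084 were called lower. The other 7 members differed by at most 0.39 on the log2 scale in size. The lung genes that set WT PBS apart stood at 132 FPKM there and 2.05 FPKM in WT ASNase, and their part in the Cyp26a1 difference was not tested. The median of the 8 members was -0.27 and that of all eligible genes -0.01.

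In Gcn2-/- livers both Cyp26 genes rose with ASNase. Cyp26a1 rose 5.82-fold, a log2 difference of 2.45, and Cyp26b1 rose by 3.96 on the log2 scale, from a PBS value whose interval reached 0 and to a value just above the limit of 3 FPKM. The Cyp26b1 difference is 1.87 with a pseudocount of 1 and 4.78 with 0.01. Of 8 eligible members 2 were called, beside 3.69% of all eligible genes. The other 6 included no call, with the lowest difference for Ttr, and the median of the 8 was -0.33 against 0.02 for all eligible genes. Once all values are rescaled by median ratios, Cyp26b1 slips under the limit of 3 FPKM and the count is 1. Of all eligible genes 3.7% are then called.

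In Atf4-/- livers Dhrs3 was the one member called of 8 eligible, beside 7.37% of all eligible genes. Cyp26a1 and Cyp26b1 differed by 0.51 and 0.94 with overlapping intervals. Ttr, Aldh1a1, Rdh7 and Lrat were lower with ASNase by 2.05, 1.52, 1.38 and 1.31 on the log2 scale, none of them called. Lrat and Dhrs3 were the 2 of 8 members with separate intervals, beside 8.03% of all eligible genes. The median of the 8 members was -1.35 against 0.08 for all eligible genes. The count is 2 with a log2 limit of 1, which adds Lrat, beside 7.99% of all eligible genes. It is also 2 when the combined error replaces separate intervals, which adds Aldh1a1, beside 8.94%. The summed pericentral hepatocyte markers, 8 genes that mark cells around the central vein, were 6010 FPKM in Atf4-/- PBS and 1418 FPKM in Atf4-/- ASNase, with none at 0, and the 6 periportal markers were 2688 and 1556 FPKM. Their part in these values was not tested.

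**Figure D2:**
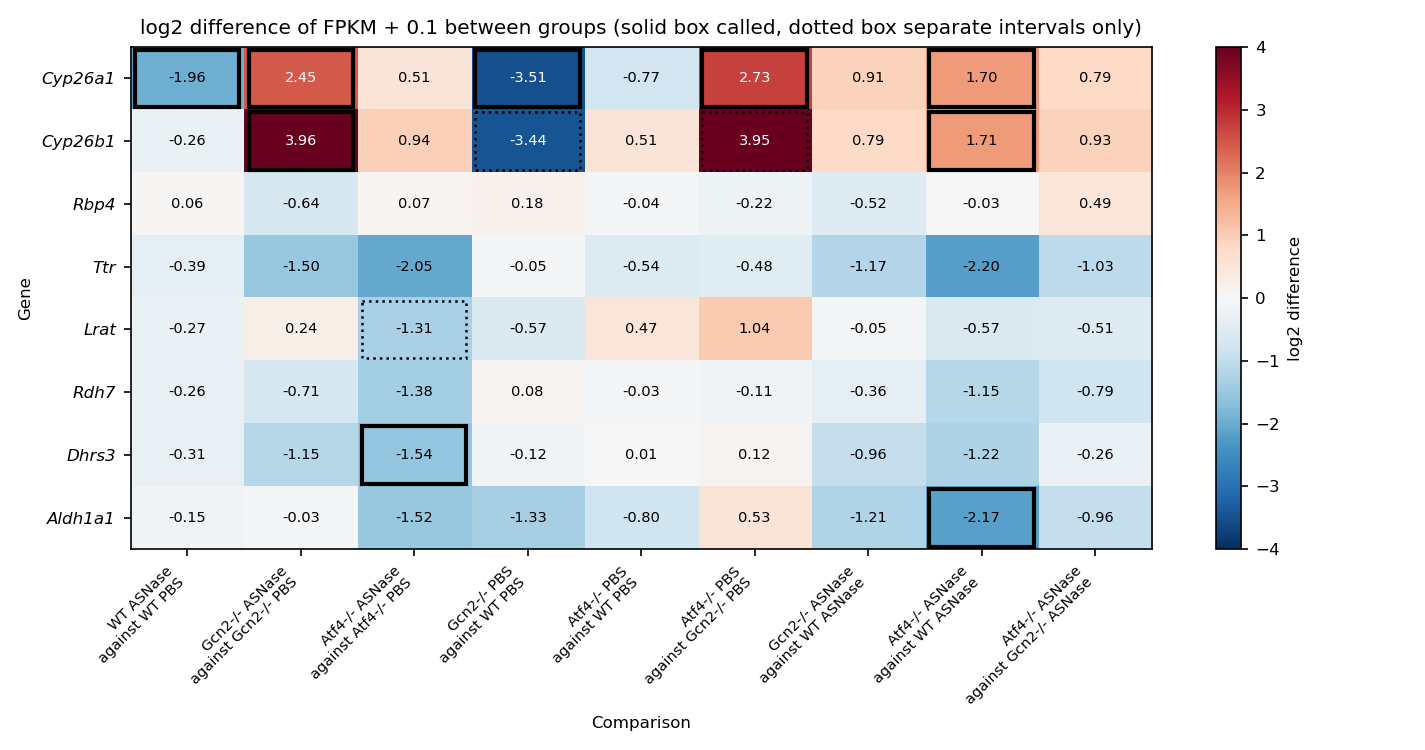
Difference in log2(FPKM + 0.1) (colour and number) of the 8 members (y axis) in the 9 comparisons (x axis), the group named first minus the second, with solid boxes for called differences and dotted boxes for separate intervals without a call. Cyp26a1 was called in 5 of the comparisons and Cyp26b1 in 2, while Rbp4, Ttr, Lrat and Rdh7 were called in none.

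Strains were compared under PBS next. Cyp26a1 was lower in Gcn2-/- PBS than in WT PBS, having fallen 12.2-fold (log2 difference -3.51), the one call of 7 eligible members beside 1.04% of all eligible genes. Cyp26b1 differed by -3.44 with separate intervals, but neither value exceeded 3 FPKM. With a limit of 1 FPKM or none it joins the count, beside 1.1% or 0.8% of all eligible genes. Aldh1a1 differed by -1.33 with overlapping intervals. In Atf4-/- PBS against WT PBS no member of 7 eligible was called, beside 1.12%, and all 8 differed by at most 0.80 in size. Against Gcn2-/- PBS, the Atf4-/- PBS livers had Cyp26a1 7.08-fold higher (log2 difference 2.73), 1 call of 7 beside 0.976%, and Cyp26b1 at 2.99 against 0.10 FPKM just missed the limit. Of these PBS groups, WT PBS had the high lung genes, and muscle genes summed to 878 FPKM in WT PBS, 68.9 FPKM in Atf4-/- PBS and 5.82 FPKM in Gcn2-/- PBS. Their part in the Cyp26 values was not tested. These 3 comparisons share their groups, and those with WT PBS also share it with the WT response.

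Markers of other cell types were also compared. Between Gcn2-/- PBS and WT PBS no sinusoidal endothelial or Kupffer cell marker was called, beside 1.04% of all eligible genes. The median log2 difference there was -0.96 for the endothelial and -0.63 for the Kupffer cell markers, against 0.06 for all eligible genes. The 6 sinusoidal endothelial markers summed to 57.1 FPKM in Gcn2-/- PBS and 60.2 FPKM in Gcn2-/- ASNase, against 86.5 to 125 FPKM in the other groups. None was at 0. Clec4g carried much of that sum. Between Gcn2-/- PBS and Gcn2-/- ASNase, Clec4g went from 31.5 to 21.5 FPKM and Kdr from 4.78 to 3.78 FPKM. Lyve1 went from 3.57 to 8.995 FPKM, Stab2 from 7.41 to 12.2 FPKM, Pecam1 from 3.49 to 5.51 FPKM and Oit3 from 6.28 to 8.20 FPKM. None of the 6 was called, and their median log2 difference was 0.51 against 0.02 for all eligible genes. The 6 Kupffer cell markers summed to 148 FPKM in Gcn2-/- PBS and 203 FPKM in Gcn2-/- ASNase, against 118 to 251 FPKM in the other groups, with none at 0. Their members differed in direction between the Gcn2-/- groups. Marco rose from 8.32 to 118 FPKM, by more than the sum did, and was the one called. Adgre1 went from 5.17 to 12.9 FPKM with separate intervals, and Clec4f went from 67.3 to 15.9 FPKM with overlapping ones. The part of either cell type in the Cyp26 values was not tested.

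Under ASNase, no member of 8 eligible was called between Gcn2-/- and WT livers, beside 4.41% of all eligible genes. Between Atf4-/- and WT livers 3 of 8 were called, beside 8.25%. Cyp26a1 rose 3.31-fold and Cyp26b1 3.41-fold, log2 differences of 1.70 and 1.71, and Aldh1a1 fell as given above. With a pseudocount of 1 the Cyp26b1 difference is 1.34 and its call is lost. Ttr differed by -2.20 with overlapping intervals. Between Atf4-/- and Gcn2-/- livers given ASNase, no member of 8 was called, beside 3.19%, and the members differed by at most 1.03 in size. Muscle genes summed to 1241 FPKM in WT ASNase, 8.98 FPKM in Gcn2-/- ASNase and 147 FPKM in Atf4-/- ASNase. Their part in the differences under ASNase was not tested.

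Whether strains differed in the response to ASNase was described by subtracting one log2 response from another. A difference was counted when it exceeded both 1.5 and the error combined from all 4 intervals, a rule and not a test, and 6 of 24 were counted. For Cyp26a1 the Gcn2-/- response exceeded that of WT by 4.41, with a combined error of 1.70, and the Atf4-/- response exceeded it by 2.47, with an error of 1.45. The Atf4-/- response of Cyp26a1 minus the Gcn2-/- response was -1.94. Cyp26b1 had differences of 4.22 for Gcn2-/- against WT and -3.02 for Atf4-/- against Gcn2-/-, and Lrat one of -1.55 for Atf4-/- against Gcn2-/-. Over all genes 4.48%, 6.56% and 3.65% were past the same rule for Gcn2-/- against WT, Atf4-/- against WT and Atf4-/- against Gcn2-/-. The differences from WT share the WT groups, and each strain enters 2 of the 3 pairs of strains. With a pseudocount of 1, 3 of the 6 are counted, namely both Cyp26a1 differences from WT and the Cyp26b1 difference between Gcn2-/- and WT, which is then 2.05.

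A further 45 genes of the pathway, sorted by role, were all found in the table. Of these 16 were at or under 3 FPKM in each group and 29 were above it in at least 1. With ASNase, none of the 29 eligible ones was called in the WT strain, beside 0.881% of all eligible genes. In Gcn2-/- livers 1 of 28 was called, lower, beside 2.13% of all eligible genes called lower, and in Atf4-/- livers 7 of 29, all lower, beside 4.63% of all eligible genes called lower there. The eligible pathway genes had a median log2 difference of -0.12 for WT, -0.47 for Gcn2-/- and -0.92 for Atf4-/- livers. Under ASNase, Gcn2-/- livers had 2 of 28 called lower than WT, beside 2.59% of all eligible genes. Compared with WT, Atf4-/- livers had 10 of 28 called lower, beside 5.66%, and 1 higher, beside 2.59%. Compared with Gcn2-/- livers they had 4 of 27 lower, beside 2.29%, and 1 higher, beside 0.898%. Under PBS, the one called gene was Cyp2c39, higher in Atf4-/- livers than in WT, where 0.354% of all eligible genes were called higher, and than in Gcn2-/- livers, where 0.544% were.

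**Figure D3:**
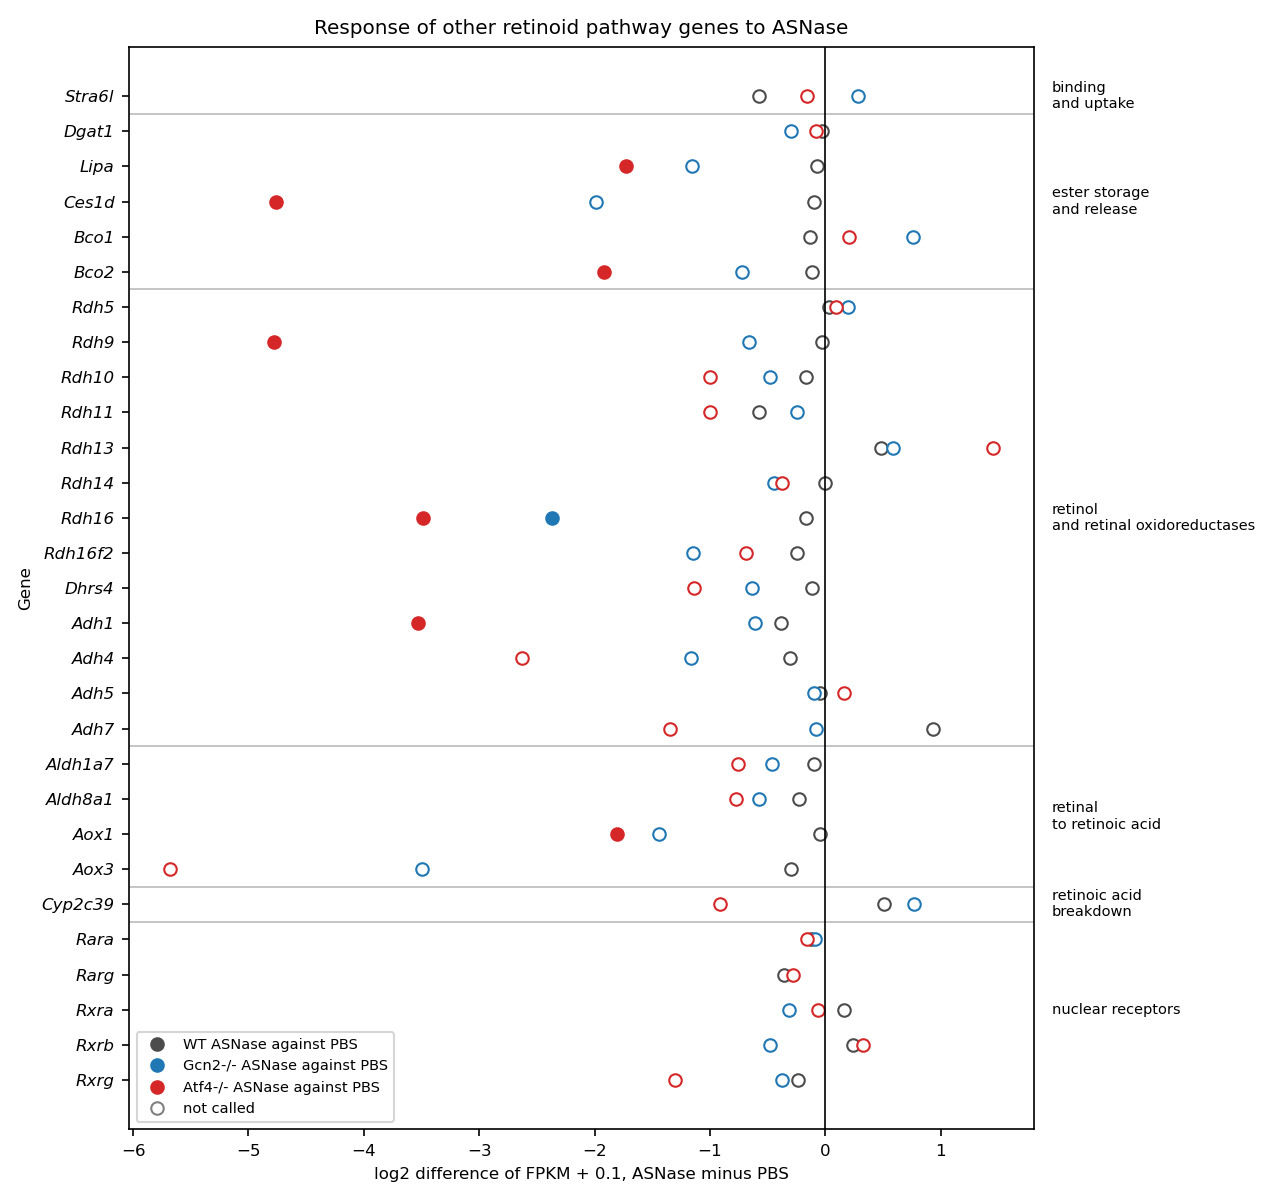
Difference in log2(FPKM + 0.1) between ASNase and PBS (x axis) for the pathway genes outside the 8 members that were eligible (y axis, grouped by role), 1 point a strain, filled where called. Filled points are 1 for Gcn2-/- and 7 for Atf4-/-, all to the left of 0, and the nuclear receptors at the foot have none.

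Among 7 binding and uptake genes 1 was eligible. Stra6l, which encodes a receptor for the retinol-binding protein, lay between 28.7 and 46.7 FPKM and was called nowhere.

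Among 6 genes listed under ester storage and release 5 were eligible. Of these 3 fell with ASNase in Atf4-/- livers, beside 4.63% of all eligible genes called lower there. Ces1d, a carboxylesterase that can split retinyl esters, fell 27.3-fold from 355 FPKM (68.0 to 642) to 13.0 FPKM (3.66 to 22.3), and it stood at 435 and 406 FPKM in the WT groups. Lipa, the lysosomal acid lipase, fell 3.32-fold to 23.8 FPKM (14.0 to 33.5). Bco2, which cleaves carotenoids, fell 3.87-fold to 2.87 FPKM (1.30 to 4.43). In Gcn2-/- livers Ces1d was at 348 FPKM with PBS and 87.8 FPKM with ASNase with overlapping intervals. Dgat1 lay at 14.9 to 18.3 FPKM in all groups.

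Among 18 retinol and retinal oxidoreductases 13 were eligible. Of these 3 fell with ASNase in Atf4-/- livers, beside 4.63% of all eligible genes called lower there. Adh1, the most abundant alcohol dehydrogenase of liver and an oxidiser of retinol, fell 11.6-fold from 1380 FPKM (418 to 2341) to 119 FPKM (58.1 to 180), while the 5 other groups lay at or above 1276 FPKM. Rdh9 fell 28.6-fold from 67.0 FPKM (17.1 to 117) to 2.34 FPKM (0.638 to 4.05). Rdh16 fell 11.7-fold from 23.6 FPKM (13.3 to 33.9) to 2.02 FPKM (0.893 to 3.14). In Gcn2-/- livers Rdh16 fell 5.22-fold to 6.60 FPKM (3.50 to 9.70), the one call of the list there. Of all eligible genes 2.13% were called lower in that comparison. Against WT ASNase, Rdh11 and Adh7 also fell in Atf4-/- ASNase, with log2 differences of -1.53 and -1.51. In that comparison 5 of the 13 were called lower, beside 5.66% of all eligible genes.

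Among 6 genes listed under the step from retinal to retinoic acid 4 were eligible. Aox1, an aldehyde oxidase, fell with ASNase in Atf4-/- livers from 14.3 FPKM (7.70 to 20.8) to 4.01 FPKM (2.07 to 5.95), and against WT ASNase it fell in both mutants. Aldh1a7 fell 3.42-fold in Atf4-/- ASNase against WT ASNase, to 34.7 FPKM. Of the 4 eligible genes 1 was called lower with ASNase in Atf4-/- livers, beside 4.63% of all eligible genes. Against WT ASNase, 2 were called lower in Atf4-/- ASNase, beside 5.66%, and 1 in Gcn2-/- ASNase, beside 2.59%. Aox3 had larger differences between ASNase and PBS, -5.68 in Atf4-/- and -3.50 in Gcn2-/- livers, and was called in neither because its PBS intervals reached 0. It was named after its values were seen.

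Beside Cyp26a1 and Cyp26b1, the breakdown list held 2 genes. Cyp2c39, a retinoic acid hydroxylase of the large Cyp2c cluster, was at 2.68 FPKM (1.09 to 4.27) in WT PBS and 2.68 FPKM (1.09 to 4.27) in Gcn2-/- PBS. In Atf4-/- PBS it was at 100 FPKM (33.7 to 167), 37.4-fold above WT PBS (log2 difference 5.17), and in Atf4-/- ASNase at 53.0 FPKM (24.1 to 82.0) against 3.87 FPKM in WT ASNase. The groups of the Atf4-/- strain were thus the high ones, with both treatments. Genes of the cluster are close paralogs, so part of these reads may belong to neighbours.

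**Figure D4:**
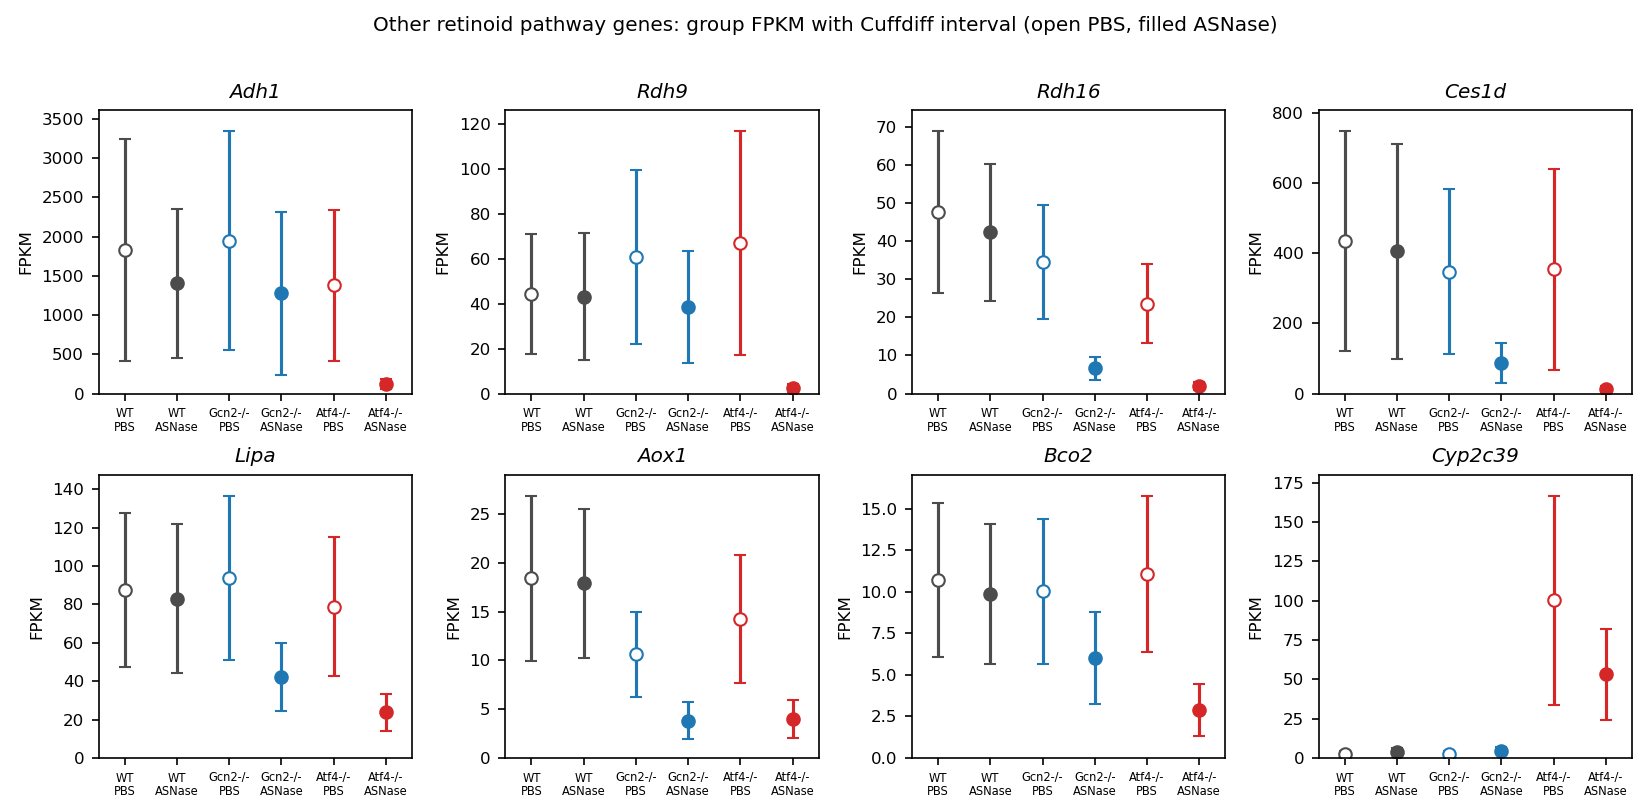
FPKM (y axis, linear from 0) of 8 further pathway genes in the 6 groups (x axis), open circles PBS, filled circles ASNase, bars the deposited Cuffdiff interval, with 1 value for 3 mice. Adh1, Rdh9, Rdh16, Ces1d, Lipa, Aox1 and Bco2 were low in Atf4-/- ASNase, where Adh1 was at 119 FPKM, and Cyp2c39 was high in both Atf4-/- groups.

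Of the 6 nuclear receptor genes, RAR and RXR, 3 to 5 were eligible in each comparison. None was called in any of the 9 comparisons, beside 0.881% to 8.25% of all eligible genes. Rxra was the most abundant, at 70.1 to 96.4 FPKM, and Rara lay at 4.40 to 5.88 FPKM. The levels of these receptors say nothing of their activity, which was not measured.

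Genes with the most similar profile over the 6 groups were sought among 10172 genes, by the root mean square difference of log2 values centred on each gene's mean, for members whose levels spanned more than 1.5 on the log2 scale. For Cyp26a1 these were Col13a1 (0.63), AL929042.1 (0.66) and Jam2 (0.68). For Cyp26b1 they were Col13a1 (0.67), Cyp26a1 (0.74) and Cd163 (0.82). Cyp26a1 was thus among the 3 nearest genes of Cyp26b1, but Cyp26b1 was not among those of Cyp26a1. The Cyp26b1 profile includes the Gcn2-/- PBS value of 0.10 FPKM, which depends on the pseudocount. Ttr, Dhrs3 and Aldh1a1 had far closer neighbours. Those of Ttr were Maob (0.10), Colec11 (0.10) and Ddah1 (0.12). Colec11 is also among the stellate cell markers summed above. Those of Dhrs3 were Hgfac (0.06), Glb1 (0.06) and Tmprss6 (0.07), and those of Aldh1a1 were G6pc (0.20), Hspa1b (0.21) and Clstn3 (0.25). The points are 6 group values, and the distance is a description of these groups.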

How the data were processed

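Poly-A RNA from 18 livers was sequenced as 100 bp single reads. Per the labels and the study's methods, the authors aligned reads to mm10 with TopHat, assembled transcripts with Cufflinks and estimated levels with Cuffdiff. The deposited table holds, for each of 37303 genes and 6 groups, 1 FPKM pooled over 3 libraries with bounds and a status. No value of a single library was analysed here, so depth per library does not enter and the interval gives the precision.

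The design allowed for limma on single libraries, which could not be fitted. Groups were compared on log2(FPKM + 0.1) by the rule in the report, in Python 3.11.15 with pandas 2.3.3, and the rule was tested on simulated data. Members, pathway lists, markers and motifs were chosen with earlier results of these data known. Other pathway genes were named where called, at most 6 a list, and 1 gene of the lists is not reported here. Gene positions came from GENCODE release 21 (M21) and promoters from RefSeq. Alternatives were 2 other pseudocounts, other FPKM and fold limits, a combined interval and median-ratio scaling.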

Additional observations from a re-analysis of the deposited data

Results flagged for a closer look

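The response of Cyp26a1 to ASNase went one way in WT livers, from 15.7 to 3.97 FPKM, and the other way in both mutants, from 1.30 to 7.54 FPKM in Gcn2-/- and from 9.18 to 13.1 FPKM in Atf4-/- livers. The Gcn2-/- response exceeded that of WT by 4.41 and the Atf4-/- response exceeded it by 2.47 on the log2 scale. There was 1 value a group, so these differences were not tested, and within Atf4-/- livers the intervals overlapped. WT PBS held 1 male, and its lung epithelium genes summed to 132 FPKM. WT ASNase held 2 males, and these genes summed to 2.05 FPKM there. The part of sex or of lung tissue in the WT response was not tested.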

How the results depend on the processing

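No paired analysis was possible because the pooled group values carry no replicate numbers, and leaving out each mouse in turn was not run for the same reason. Of 66 counts recomputed under the alternatives, 57 stayed within 1.5 times the main count and no called member difference changed sign. Counts of 0 that stayed 0 are among the 57. So is a count of 2 in place of 3 for Atf4-/- ASNase against WT ASNase with a pseudocount of 1, where Cyp26b1 lost its call. In that setting 7.43% of all eligible genes were called. The uncalled Dhrs3 difference between Atf4-/- PBS and WT PBS changed sign under median-ratio scaling, from 0.0052 to -0.0037. With an FPKM limit of 1 or with none, the count of called members was 2 in place of 1 for Gcn2-/- PBS against WT PBS and for Atf4-/- PBS against Gcn2-/- PBS. Of all eligible genes 1.1% and 0.8% were then called in the former comparison, and 0.885% and 0.602% in the latter. Median-ratio scaling gave 1 in place of 2 for Gcn2-/- ASNase against Gcn2-/- PBS and 2 in place of 1 for Atf4-/- PBS against Gcn2-/- PBS, as Cyp26b1 crossed the limit of 3 FPKM. The shares of all eligible genes called were then 3.7% and 1.02%. For Atf4-/- ASNase against Atf4-/- PBS a log2 limit of 1 gave 2 in place of 1, and so did the combined interval, with 2. The shares of all eligible genes were 7.99% and 8.94%. With a pseudocount of 1, strain differences past the rule were 3 in place of 6. Scaling moved the median of all genes by at most 0.07 on the log2 scale. Sex, age and tissue from elsewhere could not be separated from the group, and low values such as Cyp26b1 in Gcn2-/- PBS depend on the pseudocount.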
